A study of Mus musculus with 17 samples.

Results

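The Myc network factors are transcription factors that pair with Max, together with Max itself and its relative Mlx. The 10 genes examined were Myc, Mycn, Max, Mxd1, Mxd3, Mxd4, Mxi1, Mnt, Mga and Mlx, chosen by gene symbol, out of 18193 genes with a probe set annotated to a single symbol. They were represented by 26 probe sets. A gene's value is that of its brightest probe set, by the mean of all 17 arrays, and other probe sets are given beside it. All 10 genes were on the array and entered the tests. Their brightest probe sets exceeded the 40th percentile of signals on 17 of 17 arrays.

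Gene expression was measured with 1 array per mouse, in material that the labels call homogenized thymus and the study's methods call homogenized thymocytes. The groups were C57Bl/6 Tcf1-/- ΔVII/ΔVII mice with a thymic lymphoma (n = 8), C57Bl/6 Tcf1-/- ΔVII/ΔVII mice without a tumor (n = 4) and C57Bl/6 Tcf1+/- wt/ΔVII control mice (n = 5). All 3 groups carry at least 1 ΔVII allele, so no group is wild type. The study describes the mice without a tumor as of similar age to those with a lymphoma and describes the lymphomas as tumors of differing thymocyte phenotype, but neither the age nor the phenotype of each array was used here. Signals are on a log2 scale, so that a difference of 1 is a doubling of the signal.

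Myc proteins bind DNA as heterodimers with Max at a short sequence called the E-box and raise transcription of genes for ribosome formation, nucleotide synthesis and entry into the cell cycle. The Mxd proteins, Mxi1 and Mnt also pair with Max, occupy the same sites and recruit the Sin3 corepressor, so that they oppose Myc. Mga is a large Max partner found in a Polycomb complex, and Mlx takes the place of Max for some Mxd proteins and for glucose-responsive factors. In the thymus, Myc is known for its role in the expansion of immature thymocytes and is a frequent oncogene of T-cell lymphoma.

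Promoter sequences are shown for the members whose window from 250 bases before to 50 bases after the start site held a searched motif, to show which of the genes hold a site of the kind that the network itself binds. The windows come from RefSeq on GRCm38.p6, and 9 of the 10 genes have one. Myc has none, so its promoter was not searched for any of the motifs. The E-box CACGTG, which reads the same on both strands, lay in the windows of Max, Mxd4, Mnt and Mlx, so in 4 of 9 genes, against 8.09% of the 27025 genes in the whole table. The E2F motif GGCGGGAA lay in the window of Mxd3, and in those of 2.52% of all genes. The TCF/LEF motif CTTTGAT was in the windows of 0 of the 9 genes and of 4.29% of all genes. Both strands were searched. The stretches are given 5′ to 3′ on the strand of the gene with the motif in capitals, and a match is a description of the letters only.
Max, chr12:76962239-76962278, minus strand: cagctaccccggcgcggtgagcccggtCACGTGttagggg
Mxd4, chr5:34187897-34187956, minus strand: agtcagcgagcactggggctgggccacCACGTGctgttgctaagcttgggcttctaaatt
Mnt, chr11:74830774-74830833, plus strand: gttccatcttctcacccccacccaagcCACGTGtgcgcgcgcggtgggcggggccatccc
Mlx, chr11:101087223-101087282, plus strand: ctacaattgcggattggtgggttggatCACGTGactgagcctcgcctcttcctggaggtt
Mxd3, chr13:55329834-55329895, minus strand: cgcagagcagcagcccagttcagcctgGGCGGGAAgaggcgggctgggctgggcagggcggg

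Before the group differences, 4 arrays have to be set apart. Lymphomas 1 and 2 and Tcf1+/- controls 1 and 2 had interquartile ranges of 2.93 to 3.06 over all probe sets, against 3.49 to 3.75 on the other 13 arrays, which include all 4 Tcf1-/- arrays. The arrays of narrow range are spread over lymphomas and controls, and calls of the 10 genes that changed without them are given with both values. The 2 sets matter for several members. Max lay at 5.54 to 6.13 on the 4 narrow arrays and at 7.13 to 8.53 on the 13 others, so its group means depend on which arrays are included. The labels do not say whether mice came from separate litters. Because RNA of all cells was measured together, fewer cells of a type and less RNA per cell cannot be told apart.

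**Figure D1:**
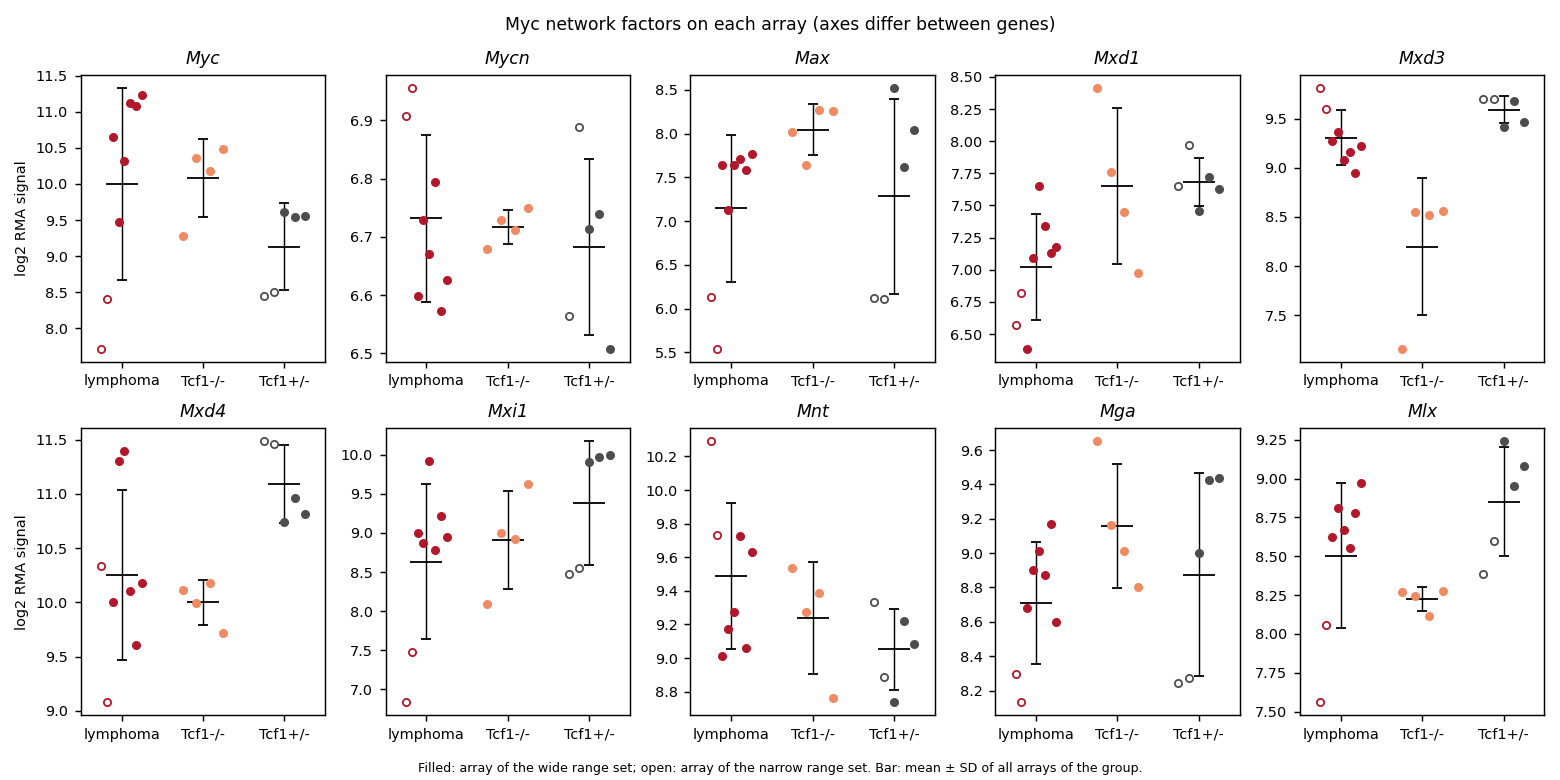
Log2 RMA signal of the 10 Myc network factors on each array, with lymphomas, Tcf1-/- thymi and Tcf1+/- controls from left to right, where filled points are arrays of wide range, open points the 4 arrays of narrow range, and bars give the mean ± SD. Mxd3 lies at 8.95 to 9.82 in the lymphomas and at 7.16 to 8.56 in the Tcf1-/- thymi, and the open points of Max lie at 5.54 to 6.13.

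Mxd3 differed between the Tcf1-/- thymi and both other groups. It encodes a Max partner that is expressed in proliferating progenitor cells, in contrast to other Mxd proteins. In the lymphomas its signal was 8.95 at the lowest, 9.25 at the median and 9.82 at the highest. Signals of the Tcf1-/- thymi were 7.16, 8.55, 8.52 and 8.56. In the Tcf1+/- controls it was 9.70, 9.70, 9.42, 9.68 and 9.46. Every Tcf1-/- array lay below every array of both other groups, whereas lymphomas and controls overlapped through the narrow arrays. Among the wide arrays the 6 lymphomas, at 8.95 to 9.37, lay below the 3 controls, at 9.42 to 9.68. Mxd3 was higher in the lymphomas than in the Tcf1-/- thymi by 1.11 (SE 0.26), a 2.16-fold difference (limma, adjusted p = 0.0132; exact two-sided permutation p = 0.00202). Against controls, Tcf1-/- thymi differed by -1.40 (SE 0.28), at 0.380 of the control signal (limma, adjusted p = 0.00788; exact two-sided permutation p = 0.00794). The difference between lymphomas and controls was -0.28 (SE 0.16; limma, adjusted p = 0.283) with all arrays and -0.35 (limma, adjusted p = 0.109) without the narrow ones.

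Mxd3 was the 1 member of 10 called in lymphomas against Tcf1-/- thymi, where 14.7% of the 13755 tested genes were called, 6.34% were called higher, and 10.7% had groups without overlap. With Tcf1-/- array 1 left out, which held the lowest value, the difference from the lymphomas was 0.76 (adjusted p = 0.0267) and that from the controls -1.05 (adjusted p = 0.00137). Without the 4 narrow arrays these differences were 0.98 (adjusted p = 0.0296) and -1.32 (adjusted p = 0.0317). The call against the lymphomas was lost with the mean signal of Y-linked genes as a covariate (1.08, adjusted p = 0.178), in a fit that called 387 genes in all. It was also lost in the block by mouse number, a fit that called 584 genes in all. The numbers did not pair the arrays of these groups.

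Both other probe sets of Mxd3 were also lowest in the Tcf1-/- thymi. Probe set 1438847_at lay at 8.59 to 9.96 in lymphomas, at 7.77 to 8.17 in Tcf1-/- thymi and at 8.83 to 9.98 in controls. Lymphomas exceeded Tcf1-/- thymi by 1.18 (limma, adjusted p = 0.00965 over 24735 probe sets), and Tcf1-/- thymi differed from controls by -1.25 (limma, adjusted p = 0.00770). Probe set 1422970_at differed between lymphomas and controls as well. It lay at 7.42 to 8.12 in lymphomas and 7.96 to 8.57 in controls, a difference of -0.53 (limma, adjusted p = 0.0388), with overlapping groups. Its difference between lymphomas and Tcf1-/- thymi, 0.72, had an adjusted p of 0.0563.

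Genes of other cell types moved with these differences. The mean log2 signal of 9 B-cell markers was 6.65 to 8.08 in lymphomas, 9.86 to 11.45 in Tcf1-/- thymi and 7.23 to 7.70 in controls. That of 12 macrophage markers was 5.94 to 8.51 in lymphomas, 8.99 to 10.93 in Tcf1-/- thymi and 6.90 to 8.16 in controls. Of these lists, 7 of the 9 B-cell and 11 of the 12 macrophage markers were called higher in Tcf1-/- thymi against controls, and 10 of 13 thymocyte markers lower. In lymphomas against Tcf1-/- thymi, 8 of the 9 and 10 of the 12 were called lower. Thymocyte markers were expressed on every array, with list means of 10.52 to 11.92 in lymphomas, 10.95 to 11.49 in Tcf1-/- thymi and 12.11 to 12.60 in controls. Among the called markers, Ms4a1, the B-cell surface protein CD20, was higher in Tcf1-/- thymi by 4.44, and Lyz2, the lysozyme of macrophages, by 3.06. The coreceptor gene Cd4 was lower at a difference of -2.60. The part of these cell types in the Mxd3 difference was not tested. Tcf1-/- array 1, with the lowest Mxd3 value, had the highest mean of both marker lists. Its mean over 11 proliferation genes was 9.39, against 11.19 to 11.32 on the other Tcf1-/- arrays. Of the remaining marker lists, 4 of 5 NK-cell, 6 of 8 dendritic, 3 of 7 fibroblast, 0 of 13 thymic epithelial markers and 0 of 1 erythroid marker were called higher in Tcf1-/- thymi against controls, and 1 thymic epithelial marker lower.

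The proliferation list itself gave no call with all arrays: 0 of its 11 genes passed limma's adjusted threshold in any of the 3 comparisons. With the array set as a block, 1 was called lower in lymphomas against controls. Its median difference was 0.47 in lymphomas against Tcf1-/- thymi, -0.05 in lymphomas against controls and -0.52 in Tcf1-/- thymi against controls. Over all tested genes these medians were 0.10, 0.06 and -0.01. At an unadjusted p under 0.05 there were 2 genes in lymphomas against Tcf1-/- thymi, 1 in lymphomas against controls and 1 in Tcf1-/- thymi against controls, and by the Mann-Whitney U test with adjustment 1, 0 and 0. Over the 17 arrays the genes with the signal most like that of Mxd3 were Dlg3 (Pearson r = 0.93), Kif2c (0.93), which encodes a kinesin of the mitotic spindle, and Emc8 (0.92). On the 13 wide arrays these coefficients were 0.94, 0.95 and 0.90. They describe likeness across arrays that also share their group.

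**Figure D2:**
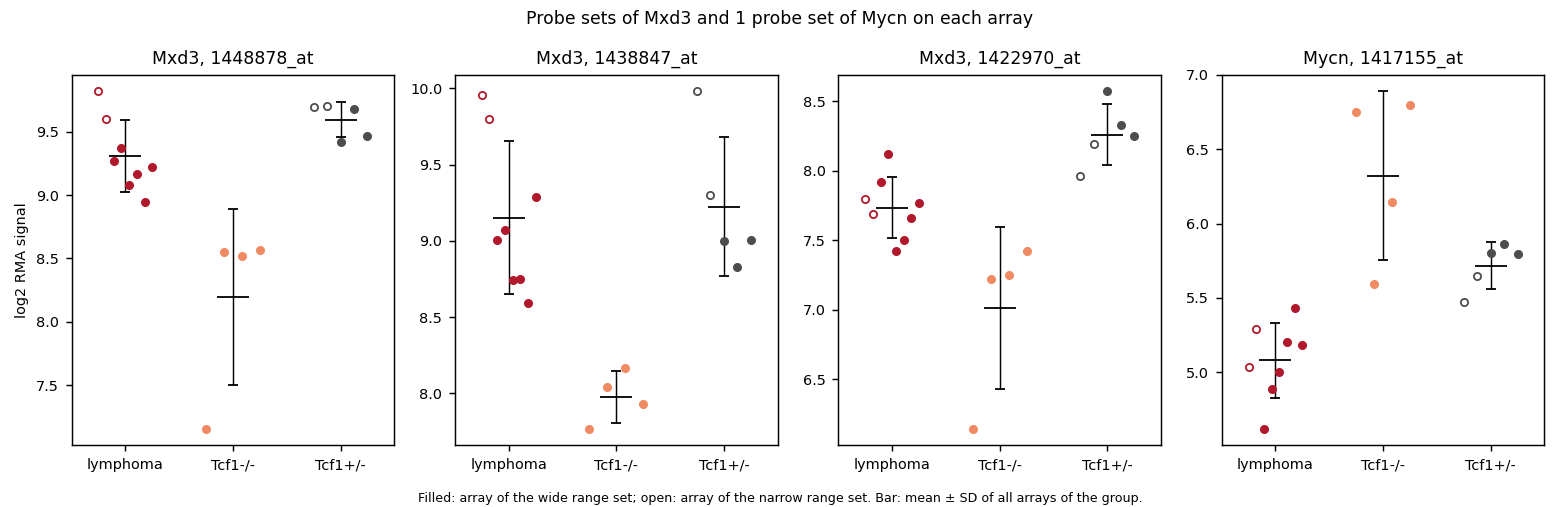
Log2 RMA signal of the 3 probe sets of Mxd3 and of Mycn probe set 1417155_at on each array, with lymphomas, Tcf1-/- thymi and Tcf1+/- controls from left to right, where filled and open points are arrays of wide and narrow range, and bars give the mean ± SD. The Tcf1-/- arrays of Mxd3 probe set 1438847_at lie at 7.77 to 8.17, below both other groups, and the lymphomas of Mycn lie at 4.62 to 5.43, also below both.

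Mxd4, a Max partner linked to cell cycle exit, was the second member lower in Tcf1-/- thymi. Its signal was 10.11, 9.99, 10.18 and 9.71 in Tcf1-/- thymi, against 11.49, 11.46, 10.74, 10.96 and 10.82 in controls. The groups did not overlap. The difference was -1.09 (SE 0.20), at 0.470 of the control signal (limma, adjusted p = 0.00512; exact two-sided permutation p = 0.00794), and -0.84 without the narrow arrays (limma, adjusted p = 0.00750). In the fit of all 17 arrays, which adds the spread of the lymphomas, its adjusted p was 0.0725. Probe sets 1434379_at and 1422574_at were called with differences of -0.90 and -0.86, and the dim probe set 1422575_at was not (-0.60, adjusted p = 0.111).

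In the lymphomas Mxd4 was variable. Its signal was 9.08 at the lowest, 10.14 at the median and 11.40 at the highest, with an SD of 0.78, against 0.21 in Tcf1-/- thymi and 0.36 in controls. Lymphomas 4 and 5, arrays of wide range at 11.31 and 11.40, lay above the 3 wide controls, at 10.74 to 10.96. They lay below the 2 narrow controls, at 11.46 and 11.49. The other 6 lymphomas lay below the lowest control. The difference from controls was -0.84 (SE 0.35; limma, adjusted p = 0.139). Without lymphoma 5, limma called this difference (Mxd4, adjusted p = 0.0468), as it did on the 4 narrow arrays alone (-1.76, adjusted p = 0.0255). With the narrow arrays left out it was -0.41 (limma, adjusted p = 0.528). The genes most like Mxd4 over the 17 arrays were Kif13b, Klf7 and 9930012K11Rik (r = 0.86 for each). On the 13 wide arrays these coefficients were 0.79, 0.77 and 0.90. As for Mxd3, arrays that share a group add to such likeness.

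Mxd3 and Mxd4 were the 2 members of 10 called in Tcf1-/- thymi against controls, both lower, where 14.8% of tested genes were called, 4.7% were called lower and 17.3% had groups without overlap. By the Mann-Whitney U test with adjustment over all genes neither was called (adjusted p = 0.0910 for each), in a comparison where that test called 0 genes in all. The exact permutation test of 4 against 5 arrays cannot go below the p of 0.00794 found for both.

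Mxd1 was the 1 member called in lymphomas against controls, where 12.7% of tested genes were called, 4.21% were called lower and 6.67% had groups without overlap. It is a Max partner induced during differentiation. Its signal in lymphomas was 6.39 at the lowest, 7.11 at the median and 7.65 at the highest. The Tcf1-/- thymi had 8.42, 7.76, 7.45 and 6.97, and the controls 7.65, 7.97, 7.45, 7.73 and 7.63. Of the 8 lymphomas, 7 lay below the lowest control, and lymphoma 5 lay among the controls. The difference from controls was -0.66 (SE 0.20), at 0.631 of the control signal (limma, adjusted p = 0.0425; exact two-sided permutation p = 0.00855). The call was lost in 11 of the 13 fits that left out 1 array, with differences of -0.75 to -0.57, and held without lymphoma 5 or lymphoma 6. The adjusted p reached 0.106 in the fits that lost it. Without the 4 narrow arrays the difference was -0.47 (adjusted p = 0.218), and on the narrow arrays alone it was -1.11 (adjusted p = 0.0182).

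Adjusted over all probe sets, this difference of Mxd1 had a p of 0.0510 and was not called. The 2 other probe sets of Mxd1 had differences of -0.53 (limma, adjusted p = 0.0554) and -0.28 (adjusted p = 0.260) from controls. Against Tcf1-/- thymi, lymphomas differed in Mxd1 by -0.63 (limma, adjusted p = 0.147), with overlapping groups. The Tcf1-/- arrays had the widest range of the 3 groups for this gene. Its highest value was on Tcf1-/- array 1 and its lowest on array 4. Means of macrophage markers (10.93 and 8.99), B-cell markers (11.45 and 9.86) and dendritic cell markers (8.20 and 6.83) had the same order on these arrays. So did NK-cell and fibroblast marker means, whereas thymocyte, thymic epithelial and erythroid marker means had the opposite order. Probe set 1455104_at was highest on array 2, at 7.97, and lowest on array 4, at 6.59. The part of these cell types was not tested. The genes most like Mxd1 over the 17 arrays were Ppp1r18 (r = 0.90), Nipal3 (0.88) and Tnip1 (0.87), the last of which encodes a regulator of NF-κB signalling. On the 13 wide arrays these coefficients were 0.89, 0.87 and 0.86.

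**Figure D3:**
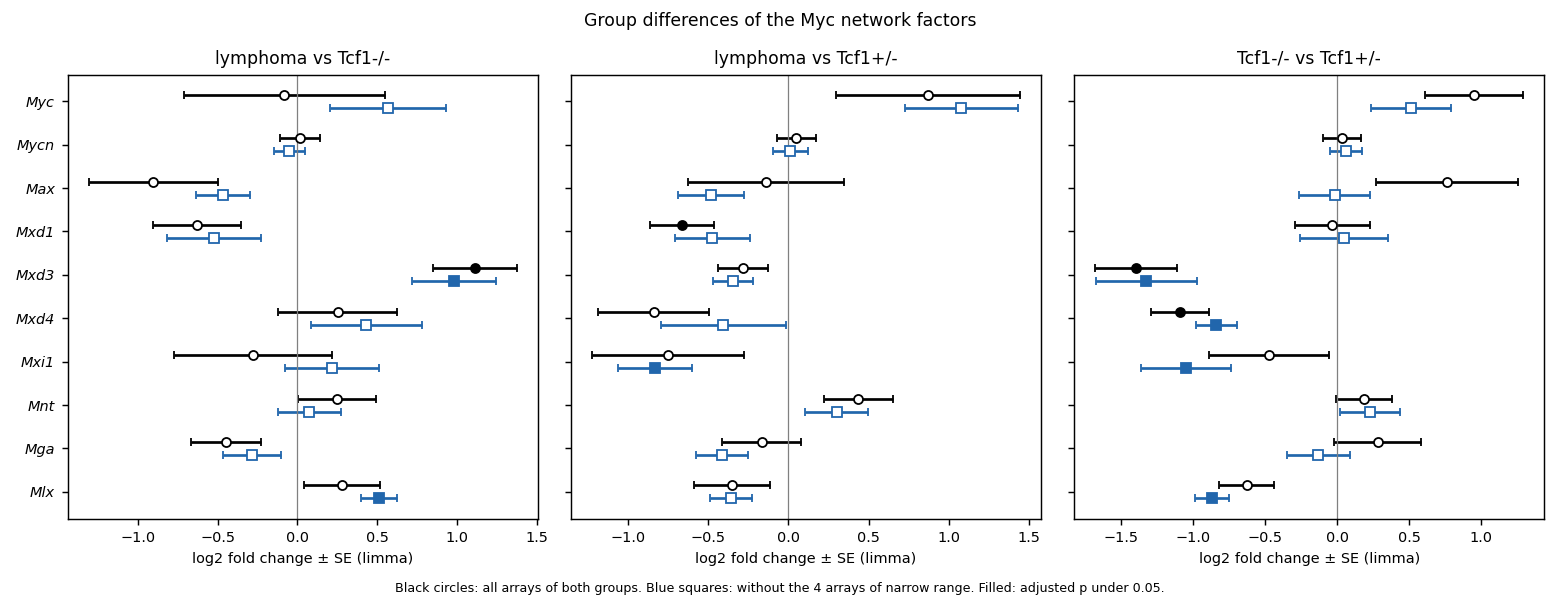
Log2 fold change ± SE of the 10 Myc network factors in the 3 comparisons, with all arrays (black circles) and without the 4 arrays of narrow range (blue squares); filled symbols have an adjusted p under 0.05. Mxd3 is filled in both fits of both comparisons that involve the Tcf1-/- thymi, whereas Mlx and Mxi1 are filled only without the narrow arrays.

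Mlx and Mxi1 were not called with all arrays, but were in other fits. Without the narrow arrays 17.8%, 11.4% and 22.1% of tested genes were called in lymphomas against Tcf1-/- thymi, lymphomas against controls and Tcf1-/- thymi against controls, and 19.8%, 27.3% and 24.8% with the array set as a block. Mlx had signals of 8.27, 8.24, 8.11 and 8.27 in Tcf1-/- thymi, against 8.39, 8.60, 9.24, 8.95 and 9.08 in controls, so that the groups did not overlap. The difference was -0.63 (SE 0.19; limma, adjusted p = 0.0502). Without the narrow arrays it was -0.87 (SE 0.12; limma, adjusted p = 0.00332). On the 13 wide arrays the 6 lymphomas lay at 8.56 to 8.97, between the Tcf1-/- arrays and, apart from lymphoma 8, the controls. They were higher than the Tcf1-/- thymi by 0.51 (limma, adjusted p = 0.0144), against 0.28 (adjusted p = 0.468) with all arrays. The second probe set of Mlx, 1425930_a_at, also lay below the controls in Tcf1-/- thymi (-1.18, adjusted p = 0.00717 without narrow arrays), but it put the lymphomas lower still, at -0.21 from the Tcf1-/- thymi (adjusted p = 0.773).

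Mxi1, an antagonist of Myc, lay at 8.78 to 9.22 in 5 of the 6 wide lymphomas and at 9.92 in lymphoma 5, at 8.10 to 9.62 in Tcf1-/- thymi and no lower than 9.91 in the 3 wide controls. All 4 Tcf1-/- thymi and those 5 lymphomas therefore lay below the controls of the wide set. On the wide arrays the exact two-sided permutation p against controls was 0.0571 for Tcf1-/- thymi and 0.0238 for the 6 lymphomas. The share of all genes that separated on these arrays was not computed. Without the narrow arrays the difference from controls was -1.05 in Tcf1-/- thymi (SE 0.31; limma, adjusted p = 0.0489) and -0.83 in lymphomas (SE 0.23; limma, adjusted p = 0.0471). With all arrays these were -0.47 (adjusted p = 0.563) and -0.75 (adjusted p = 0.372). Adjusted over 24735 probe sets, the 2 differences without the narrow arrays had p values of 0.0542 in Tcf1-/- thymi and 0.0471 in lymphomas (limma). Without those arrays the other probe set, 1425732_a_at, differed by -1.05 in Tcf1-/- thymi (limma, adjusted p = 0.0550) and -1.38 in lymphomas (limma, adjusted p = 0.0183). With all arrays it was not called. On the narrow arrays alone, lymphomas 1 and 2, at 6.83 and 7.47, differed from controls 1 and 2, at 8.48 and 8.55, by -1.36 (limma, adjusted p = 0.0161). Pairing lymphomas and controls 1 to 5 by the number in their titles called Mxd1 (-0.78, adjusted p = 0.0431) and Mxi1 (-0.96, adjusted p = 0.0307). The same 10 arrays without the pairing called 0 members with limma, and 4 of the 10 arrays in this pairing are the narrow ones.

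Myc itself was not called in any of the 3 comparisons. In the lymphomas its signals were 7.72, 8.40, 10.65, 9.47, 10.32, 11.13, 11.08 and 11.23. In Tcf1-/- thymi they were 9.28, 10.37, 10.18 and 10.49, and in controls 8.45, 8.50, 9.61, 9.54 and 9.55. The 2 lowest lymphomas are the 2 narrow arrays, and they also lay below the 2 narrow controls. Of the 8 lymphomas, 5 lay above the highest control and 4 above the highest Tcf1-/- thymus. The difference from controls was 0.87 (SE 0.57; limma, adjusted p = 0.396) with all arrays and 1.08 (SE 0.35; limma, adjusted p = 0.0809) without the narrow arrays. On the narrow arrays alone it was -0.41 (adjusted p = 0.335). Tcf1-/- thymi differed from controls by 0.95 (SE 0.34; limma, adjusted p = 0.0959), with 3 of 4 arrays above the highest control. Without Tcf1-/- array 1, Myc was called, at 1.22 (limma, adjusted p = 0.0321), and so it was with quantile normalization (0.86, adjusted p = 0.0459) and in the block by mouse number (1.06, adjusted p = 0.0469). Without the narrow arrays the difference was 0.51 (limma, adjusted p = 0.227).

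Mycn, the Myc paralog of early lymphoid and neural progenitors, gave different results by probe set. Its brightest probe set, 1425923_at, had group means of 6.73 ± 0.14 in lymphomas, 6.72 ± 0.03 in Tcf1-/- thymi and 6.68 ± 0.15 in controls (SD, n = 8, 4 and 5), and limma called it in no comparison. Probe set 1417155_at was dim in lymphomas, above the array's median signal in 1 of 8 and above its 40th percentile in 7 of 8. It had signals in lymphomas of 4.62 at the lowest, 5.11 at the median and 5.43 at the highest. The Tcf1-/- thymi had 6.75, 5.60, 6.14 and 6.80, and the controls 5.47, 5.65, 5.80, 5.87 and 5.80. Every lymphoma lay below every array of both other groups, whereas on 1425923_at and 1425922_a_at the groups overlapped. Of tested genes, taken by their brightest probe set, 10.7% had groups without overlap against Tcf1-/- thymi and 6.67% against controls. Of the same genes 14.7% and 12.7% were called. Shares over all probe sets were not computed. The difference was -1.24 (SE 0.23) from Tcf1-/- thymi (limma, adjusted p = 0.00358 over 24735 probe sets) and -0.64 (SE 0.15) from controls (limma, adjusted p = 0.0164). Both calls held without the narrow arrays (-1.26 and -0.77). The third probe set, 1425922_a_at, had differences of -0.28 and -0.29 that were not called. The mean of the Mycn probe sets was lower in lymphomas than in Tcf1-/- thymi at a difference of -0.50 (limma, adjusted p = 0.0303).

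Max, Mnt and Mga were called in no comparison. Max, the common partner, averaged 7.58 ± 0.23 in the 6 wide lymphomas, 8.05 ± 0.29 in Tcf1-/- thymi and 8.06 ± 0.45 in the 3 wide controls (SD). Without the narrow arrays the lymphomas differed by -0.47 from Tcf1-/- thymi and by -0.48 from controls (limma, adjusted p = 0.0806 and 0.162). Mnt, the broadly expressed antagonist, averaged 9.49 ± 0.44 in lymphomas, 9.24 ± 0.33 in Tcf1-/- thymi and 9.05 ± 0.24 in controls (SD, n = 8, 4 and 5), and 4 of 8 lymphomas lay above the highest control. Mga averaged 8.71 ± 0.36 in lymphomas, 9.16 ± 0.36 in Tcf1-/- thymi and 8.88 ± 0.59 in controls. One dim probe set of Mga, 1442356_at, lay at 5.25 to 5.45 in lymphomas, above the 4.98 to 5.08 of Tcf1-/- thymi without overlap. Its difference of 0.32 was not called (limma, adjusted p = 0.0892). Of tested genes, taken by their brightest probe set, 10.7% had groups without overlap in this comparison.

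Across the lymphomas, Myc and the other 9 members were set against each other within the 6 wide arrays. The 2 narrow lymphomas were left out here for their interquartile ranges. No coefficient over all 8 lymphomas is given, because the 2 narrow ones were also the 2 lowest in Myc. After adjustment over the 9 relations, 0 passed by an exact permutation test of Pearson's r or of Spearman's rho. The closest were Max (r = 0.88, p = 0.0417, adjusted p = 0.225; rho = 0.81, p = 0.0611, adjusted p = 0.550) and Mxd4 (r = -0.81, p = 0.05, adjusted p = 0.225; rho = -0.43, p = 0.419, adjusted p = 0.846).

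Targets induced by Myc were described from a list of 30 genes, of which 29 were on the array and tested. In lymphomas against controls 24 of the 29 were called higher and 1 lower, where 8.51% of all tested genes were called higher, and the median difference of the list was 0.91, against 0.06 over all tested genes. In the same comparison 8 of 13 thymocyte, 3 of 5 NK-cell, 3 of 8 dendritic, 2 of 13 thymic epithelial and 1 of 9 B-cell markers were called lower, 1 NK-cell, 1 B-cell and 1 fibroblast marker higher, and 0 of 12 macrophage markers in either direction, which was 2 lower without the narrow arrays. Their part in the list's difference was not tested. The called genes included Cad, the enzyme that starts pyrimidine synthesis (9.83 ± 0.51 in lymphomas and 8.33 ± 0.20 in controls, SD, limma adjusted p = 0.00113), Shmt2, a mitochondrial enzyme of one-carbon metabolism (1.36, SE 0.25, adjusted p = 0.00350), and Tfrc, the transferrin receptor (1.66, SE 0.35, adjusted p = 0.00741). Fbl, the fibrillarin of the nucleolus, averaged 12.77 ± 0.34 in lymphomas and 11.66 ± 0.13 in controls (SD). Ccnd2, cyclin D2, was the gene called lower, with a difference of -2.96 from controls (SE 0.62; limma, adjusted p = 0.00655), and it was lower than in Tcf1-/- thymi with a difference of -3.91 (SE 0.73; limma, adjusted p = 0.00312).

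The mean log2 signal of the list separated lymphomas and controls on every array. It was 10.22 at the lowest, 10.75 at the median and 10.93 at the highest in lymphomas, 9.86 to 10.63 in Tcf1-/- thymi and 9.61 to 10.11 in controls. Lymphomas 1 and 2, with the lowest Myc signals, had list means of 10.73 and 10.76, within the range of the other lymphomas. Without the narrow arrays 13 of the 29 were called higher (median 0.75), with the array set as a block 25, and on the narrow arrays alone 22. Paired by number, lymphomas and controls 1 to 5 gave 13, and the same arrays unpaired gave 10. With Ccnd2 the 1 gene called lower with all arrays, 0 were called lower without the narrow arrays.

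Against Tcf1-/- thymi, 5 of the 29 were called higher in lymphomas and 1, Ccnd2, lower, where 6.34% of all tested genes were called higher, with a median of 0.49, against 0.10 over all tested genes. The count called higher was 0 without Tcf1-/- array 1, 1 to 3 without Tcf1-/- array 2, 3 or 4 or lymphoma 1, 2, 6, 7 or 8, and 8 without lymphoma 5. Tcf1-/- array 1 had the lowest list mean of its group, 9.86, against 10.46 to 10.63 on the other 3. The genes Rcc1 and Apex1 were higher by 1.11 (limma, adjusted p = 0.0456) and 0.93 (limma, adjusted p = 0.0487). Between Tcf1-/- thymi and controls, 5 were called higher in Tcf1-/- thymi and 0 lower, where 10.1% of all tested genes were called higher, with a median of 0.39, against -0.01 over all tested genes. They were Odc1, the enzyme that starts polyamine synthesis (1.19), Cad (0.88), the chaperonins Hspe1 (0.79) and Hspd1 (0.65), and Fbl. Without Tcf1-/- array 1 this count was 10, and 2 without array 2 or array 3.

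**Figure D4:**
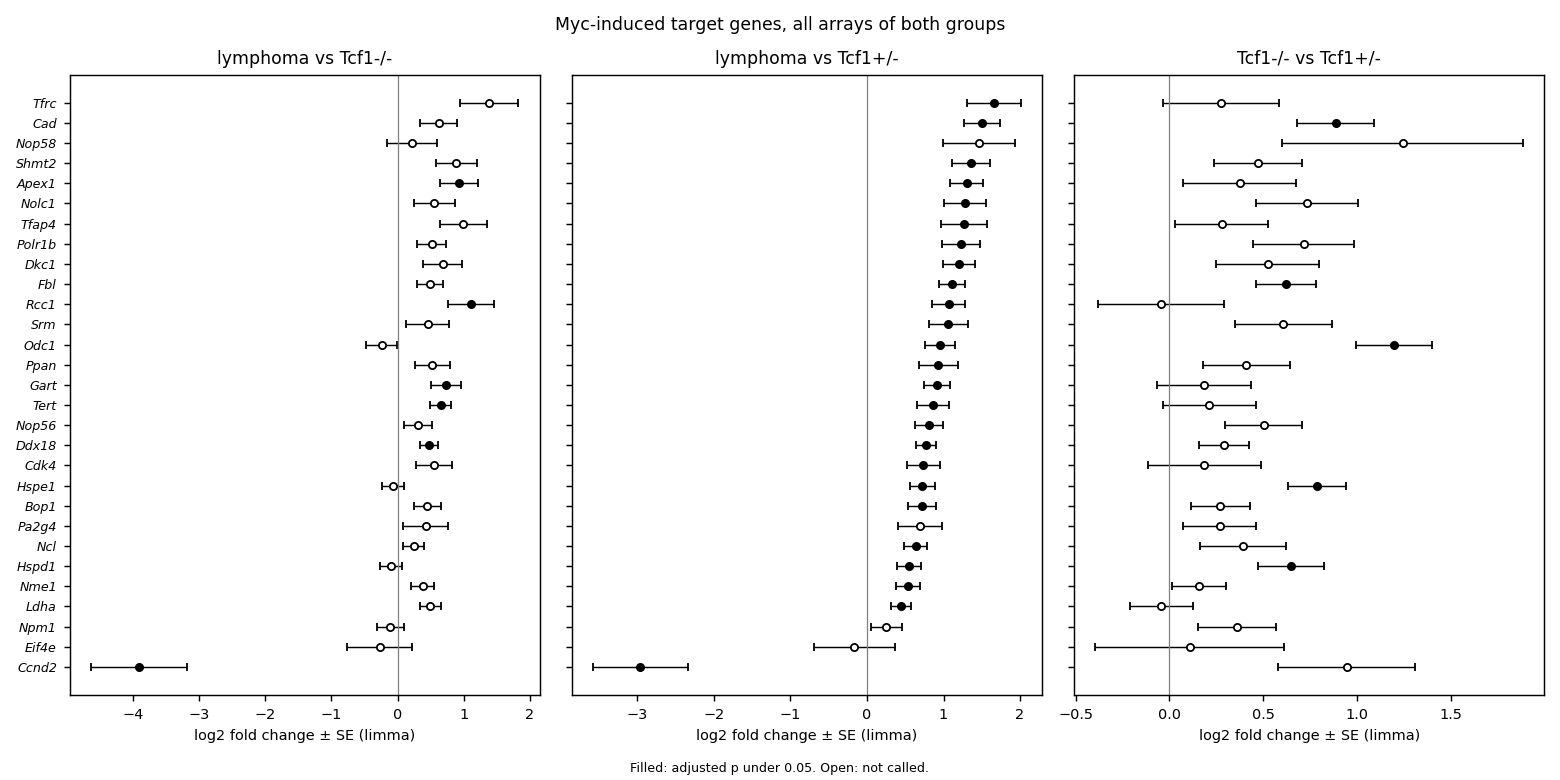
Log2 fold change ± SE of the 29 tested Myc-induced targets in the 3 comparisons, ordered by the difference between lymphomas and controls; filled points have an adjusted p under 0.05, and the axes of the panels differ. In lymphomas against controls 24 points are filled to the right of 0 and 1, Ccnd2, to the left, against 5 and 1 in lymphomas against Tcf1-/- thymi.

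Of the 8 genes known as repressed by Myc, 1 was called lower in lymphomas against Tcf1-/- thymi and 1 against controls, and in Tcf1-/- thymi against controls 2 were called higher and 2 lower. These are shares of 12.5%, 12.5% and 50% of the list, where 14.7%, 12.7% and 14.8% of all tested genes were called. The medians were -0.31, -0.07 and 0.37. In lymphomas against controls the 1 called gene was Cdkn1b, an inhibitor of cyclin-dependent kinases, lower at a difference of -0.97 (limma, adjusted p = 0.00590). It was also lower in Tcf1-/- thymi than in controls, at a difference of -0.79 (limma, adjusted p = 0.0177). Ndrg2 was lower in Tcf1-/- thymi than in controls as well, at a difference of -1.30 (limma, adjusted p = 0.00578). Cdkn1a, an inhibitor related to Cdkn1b, was higher in Tcf1-/- thymi than in controls by 1.25 (limma, adjusted p = 0.0181). Cebpa, a factor of myeloid cells, was higher in Tcf1-/- thymi by 1.59 and lower in lymphomas than in Tcf1-/- thymi at a difference of -1.71, the same order as the macrophage markers.

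Among cofactors of Myc, 4 of 12 were called higher in lymphomas against Tcf1-/- thymi and 4 of 12 against controls, and 0 lower in either. Of all tested genes, 6.34% and 8.51% were called higher. The medians of the list were 0.49 and 0.34. Ruvbl1, an ATPase of chromatin complexes, was higher by 0.94 (SE 0.17; limma, adjusted p = 0.00244) and 0.75 (SE 0.16; limma, adjusted p = 0.00625), and Wdr5 by 0.62 and 0.61. Kat2a, an acetyltransferase, was higher than in controls by 1.25 in lymphomas (limma, adjusted p = 0.00116) and by 0.80 in Tcf1-/- thymi (adjusted p = 0.0114). With the narrow arrays left out, 2 of the 12 were called higher in each lymphoma comparison, and with the array set as a block 5 against Tcf1-/- thymi and 6 against controls.

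The remaining lists cover partners of the antagonists, Myc turnover, paralogs and Mlx targets. Of all tested genes, 14.7% were called in lymphomas against Tcf1-/- thymi, 12.7% in lymphomas against controls and 14.8% in Tcf1-/- thymi against controls. Without the narrow arrays these shares were 17.8%, 11.4% and 22.1%, and with the array set as a block 19.8%, 27.3% and 24.8%. No list was tested against these shares. For the 11 genes of the Sin3 corepressor, limma called 0 in each comparison, with 1, 0 and 1 at an unadjusted p under 0.05 in lymphomas against Tcf1-/- thymi, lymphomas against controls and Tcf1-/- thymi against controls, and 0 by the Mann-Whitney U test. On the wide arrays 2 were called lower in lymphomas against controls and 2 in Tcf1-/- thymi against controls, and with the array set as a block 2 and 3. For the 8 tested genes of the Mga complex, limma called 0 in each, with 1 at an unadjusted p under 0.05 in each and 0 by the Mann-Whitney U test. Leaving out the narrow arrays, or with their block, 1 was called higher in each lymphoma comparison and 1 lower in Tcf1-/- thymi against controls. Of 10 genes of Myc protein turnover, 1 was called in lymphomas against controls and 1 in Tcf1-/- thymi against controls. Both times it was Trpc4ap, a subunit of a ubiquitin ligase that acts on Myc, lower at a difference of -0.73 (limma, adjusted p = 0.00249) and -0.94 (limma, adjusted p = 0.00395). Of the paralogs Mycl, Bmyc and Mlxip, 1 was called with all arrays, and 1 was also called lower in lymphomas against Tcf1-/- thymi without the narrow arrays. With all arrays it was Mlxip, a partner of Mlx, higher in Tcf1-/- thymi than in controls by 0.93 (limma, adjusted p = 0.0260). Of the 2 Mlx targets Txnip and Arrdc4, the arrestin gene Arrdc4 was higher in Tcf1-/- thymi than in controls by 1.30 (limma, adjusted p = 0.00537), and Txnip differed by -0.01 (limma, adjusted p = 0.993).

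**Figure D5:**
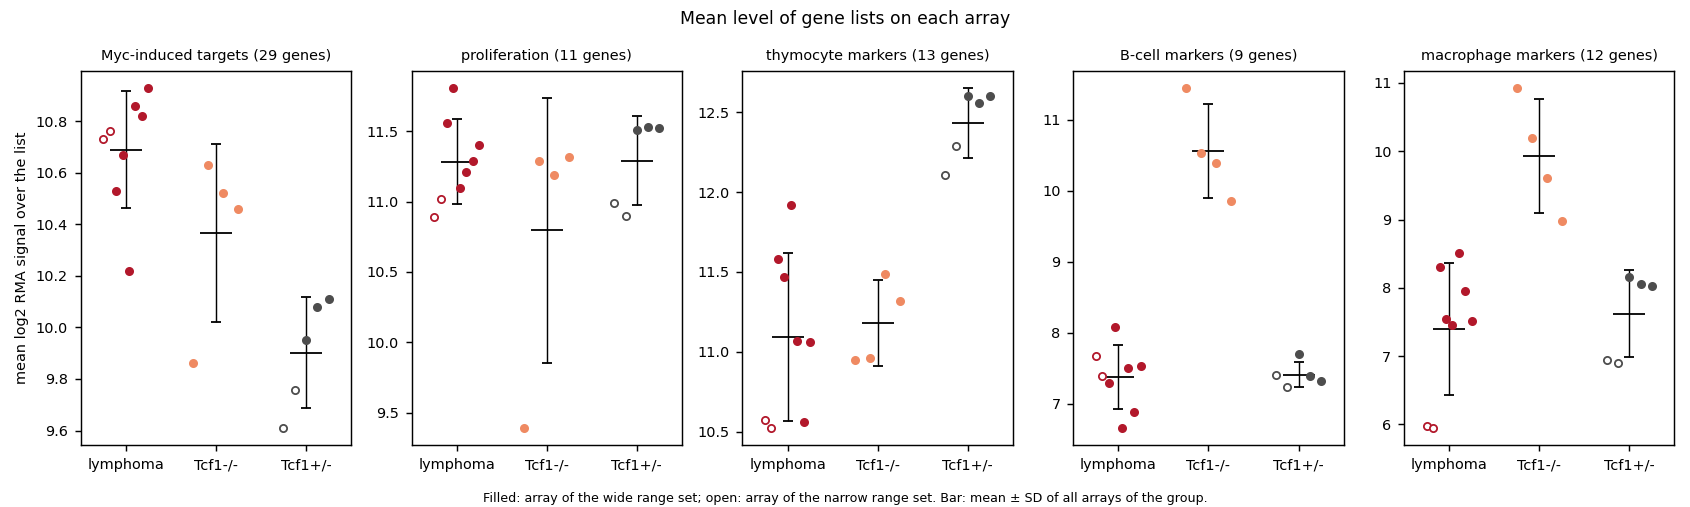
Mean log2 RMA signal of 5 gene lists on each array, with lymphomas, Tcf1-/- thymi and Tcf1+/- controls from left to right, where filled and open points are arrays of wide and narrow range, and bars give the mean ± SD. The lymphomas lie at 10.22 to 10.93 for the Myc-induced targets, all above the controls at 9.61 to 10.11, and the Tcf1-/- thymi lie above both other groups for the B-cell and macrophage markers.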

How the data were processed

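Total RNA of the homogenized samples was hybridized to Affymetrix mouse genome 430 2.0 arrays. The deposited log2 values are those the authors obtained by RMA, a method that corrects background, equalizes signals between arrays and summarizes probe sets. Its version is not given in the sources used here. The deposited distributions still differed between arrays. Interquartile ranges were 2.93 to 3.06 on 4 arrays and 3.49 to 3.75 on the other 13. A shift shared by most genes cannot be told apart from an effect of the normalization. A deposited log2 value holds no count, so that the number of arrays limits the precision. Of 45101 probe sets, 64 are controls, 34945 carry a single symbol, 932 several and 9160 none. Symbols came from the platform annotation, and only single-symbol probe sets were used. The targeted gene is not reported here.

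Groups came from the titles and strains of the samples. Genes above an array's 40th percentile in at least 4 arrays were tested (13755). Each pair of groups was fitted separately with limma 3.58.1 in R 4.3.3 (lmFit, eBayes, Benjamini-Hochberg over all tested genes), and a gene was called at an adjusted p under 0.05. Single probe sets were adjusted over 24735 probe sets. The fits were tested on simulated data. The methods name the Mann-Whitney U test and values relative to Abl, and both were run as alternatives. The fits share the same control and Tcf1-/- arrays, so the comparisons are not independent.

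The members and gene lists were chosen with earlier results of these data known. Named were all members, up to 4 genes of each list per comparison with the largest differences among called genes (or among all genes where none was called), and the 3 genes most correlated with each called member. Fbl was named beyond this rule, after its values were seen.

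The mouse numbers in the titles were checked for pairing. After subtraction of group means, same-numbered arrays of lymphomas and controls correlated at 0.246 to 0.625 over 5 pairs, and 2 of 5 were closest to their own number. Numbers 1 and 2 are those of the narrow arrays. For lymphomas and Tcf1-/- thymi (-0.189 to 0.091) and for Tcf1-/- thymi and controls (-0.286 to 0.12) the numbers did not pair the arrays. The highest correlation between any 2 arrays was 0.9968, and no 2 arrays were identical.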

Additional observations from a re-analysis of the deposited data

Results flagged for a closer look

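Of 30 sets of values (10 genes in 3 groups) tested for a sample far from the others, 1 passed Dixon's criterion. Mxd3 on Tcf1-/- array 1 was 7.158, the nearest array of that group was 8.521, and this gap was 0.97 of the range of the 4 arrays, against a critical value of 0.829. Chance gives about 1 such set in 20. On the same array the mean of the proliferation genes was 9.39, the lowest of all 17 arrays, and the means of the B-cell and macrophage markers were the highest, 11.45 and 10.93. The part of these in the low value was not tested.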

How the results depend on the processing

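The alternatives that used only the narrow arrays, or the arrays of the paired fit without pairing, were chosen after seeing the data. Members called in lymphomas against Tcf1-/- thymi numbered 1, but 2 with the mean of probe sets, without the narrow arrays and with the array set as a block, and 0 with the Y-linked covariate and in the replicate block. In lymphomas against controls they numbered 1, but 0 with a fold change threshold, median centring, Abl1 subtracted, a variance trend, the Mann-Whitney U test, all 17 arrays in one fit, the Y-linked covariate and the unpaired fit of the paired arrays. They numbered 3 with the array set as a block and on the narrow arrays alone, 2 in the replicate block, and 0 to 2 when 1 array was left out. In Tcf1-/- thymi against controls they numbered 2, but 4 with quantile normalization, without the narrow arrays and with the array set as a block, 1 with all 17 arrays in one fit and 0 by the Mann-Whitney U test, and 3 with the Y-linked covariate (with Mlx), in the replicate block (with Myc), where the numbers did not pair the arrays, and without Tcf1-/- array 1 (with Myc) or Tcf1+/- array 1 or 2 (with Mlx). Pairing changed no other call of a member in lymphomas against controls. The Mxd3 calls held in 12 of 12 and 9 of 9 fits that left out 1 array. Numbers of all genes called moved too. In lymphomas against Tcf1-/- thymi they were 2020 in the main fit and 2722 with the array set as a block. With the Y-linked covariate 387 were called, and in the replicate block 584. In lymphomas against controls 1749 were called, and 686 to 1948 in the named fits without a called member. The fits with 3 members there called 3753 and 2872. In Tcf1-/- thymi against controls 2037 were called, and 3418 with the array set as a block. The cause of these changes was not tested.

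Directions turned in the following differences, of which only those of Mycn against Tcf1-/- thymi (-0.50 and -1.24) and controls (-0.64) were called. In lymphomas against Tcf1-/- thymi, Myc was 0.56 without the narrow arrays or with their block, 0.014 with Abl1 subtracted and 0.24 with the Y-linked covariate. Mycn was -0.052 in those 2 array-set fits, -0.50 as the mean of probe sets and -1.24 and -0.28 on its other probe sets. Mxi1 was 0.22 in the array-set fits, Mxd4 -0.11 on 1422574_at, Mlx -0.17 as a mean and -0.62 on 1425930_a_at, and Mga 0.14 as a mean and 0.23, 0.27 and 0.32 on other probe sets. In lymphomas against controls, Myc was -0.41 and Mxd3 0.0057 on the narrow arrays alone, Mycn -0.29 as a mean and -0.64 and -0.29 on other probe sets, and Max 0.40 with the Y-linked covariate. Mga was 0.13 with that covariate, 0.017 as a mean and 0.0028, 0.12 and 0.049 on other probe sets. In Tcf1-/- thymi against controls, Mycn was -0.11 with quantile normalization, -0.038 with Abl1 subtracted, -0.0092 in the replicate block and unpaired and -0.012 on 1425922_a_at. Max was -0.017 in the array-set fits. Mxd1 was 0.048 in those, 0.0048 as a mean, 0.021 with the Y-linked covariate and 0.14 on 1455104_at. Mnt was -0.035 on 1418193_at, and Mga -0.13 in the array-set fits, -0.12 as a mean and -0.23, -0.16 and -0.27 on other probe sets. With 1 array left out, the range was -0.35 to 0.24 for Myc and -0.018 to 0.037 for Mycn in lymphomas against Tcf1-/- thymi, -0.43 to 0.17 for Max in lymphomas against controls, and -0.0092 to 0.086 for Mycn and -0.29 to 0.19 for Mxd1 in Tcf1-/- thymi against controls.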
